A study of Mus musculus with 3 samples.

Results

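Hox genes encode homeodomain transcription factors, and in the mouse they lie in 4 clusters, named A to D. Non-control probes called Hoxa, Hoxb, Hoxc or Hoxd followed by a number were taken, with the names held to a list of genes. This gave 49 of 41174 probes and 37 of 27597 gene labels, with 10 genes in cluster A, 10 in B, 8 in C and 9 in D. Hoxc11 was not analysed here, because no probe bore that name.

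Each sample was 1 one-colour array of total RNA labelled with Cy3. The groups were p53-null mouse embryonic fibroblasts (MEF), which the labels present as lacking the tumour suppressor p53, embryonic stem (ES) cells, and MEF with wild-type p53 according to the series design. A Nanog-GFP reporter is named in the titles of all 3 samples. The study set p53-null MEF against MEF, and ES cells against MEF. No strain, embryo age, embryo number, sex, passage or body part used for the fibroblasts was given in the sources used here, so the arrays may come from cultures that differ in these. With 1 array a group there were no replicates and no test. Every difference below compares 2 arrays, and its error is the scanner software's error model for the spots, which leaves out the spread between cultures.

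The number in a Hox gene's name is its paralogue group, the rank it holds in its cluster, and genes of the same number in different clusters descend from 1 ancestral gene. Low numbers lie at one end of a cluster and are switched on early and near the head in the embryo, while high numbers lie at the other end and act late, in the trunk, the tail, the limbs and the genitals. Fibroblasts taken from different body sites are known to keep different sets of active Hox genes, and in ES cells the clusters are largely held silent by Polycomb repressive complexes. Paralogues 1 to 3 are called anterior here (7 genes), 4 to 8 central (15 genes) and 9 to 13 posterior (15 genes).

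The homeobox, the stretch of each gene that encodes the DNA-binding homeodomain, is only partly identical in its bases between paralogues. The probes printed here fall in it, and show what the arrays read for the posterior genes Hoxa13, Hoxb13 and Hoxd13. Each is 60 bases long, given 5′ to 3′, and capitals mark the 23 bases identical in all 3 over the 44 bases they share.
Hoxa13 at chr6:52188599-52188658, minus strand: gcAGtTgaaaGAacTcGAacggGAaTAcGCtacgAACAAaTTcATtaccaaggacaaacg
Hoxb13 at chr11:96012144-96012203, plus strand: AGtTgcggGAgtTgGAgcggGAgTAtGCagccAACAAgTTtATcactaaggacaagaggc
Hoxd13 at chr2:74470787-74470846, plus strand: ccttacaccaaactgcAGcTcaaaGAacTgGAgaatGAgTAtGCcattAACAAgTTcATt
The Hoxa13 and Hoxb13 probes were identical at 69.0% of 58 overlapping bases, the Hoxa13 and Hoxd13 probes at 71.7% of 46, and the Hoxb13 and Hoxd13 probes at 63.6% of 44. Positions are on mouse build mm8, from the design file of the p53-null MEF array. Whether any other probe lies in an exon, an intron or an untranslated region was not determined.

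The promoters of Hoxd13 and Hoxd4 are shown because these genes had the highest and the lowest difference between the fibroblast arrays within cluster D. Both are 300 bases around the start of the gene as RefSeq gives it, on the plus strand of assembly GRCm38.p6. Capitals mark the TATA box letters TATAAA, the CCAAT box letters CCAAT and the GC box letters GGGCGG, searched on both strands.
Hoxd13 promoter at chr2:74667975-74668274: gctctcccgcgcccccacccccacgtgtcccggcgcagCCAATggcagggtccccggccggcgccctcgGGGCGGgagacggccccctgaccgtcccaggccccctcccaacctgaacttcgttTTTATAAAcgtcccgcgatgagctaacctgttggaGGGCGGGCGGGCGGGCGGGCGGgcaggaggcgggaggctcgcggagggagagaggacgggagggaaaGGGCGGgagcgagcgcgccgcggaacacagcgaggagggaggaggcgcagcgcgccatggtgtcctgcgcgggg
Hoxd4 promoter at chr2:74721728-74722027: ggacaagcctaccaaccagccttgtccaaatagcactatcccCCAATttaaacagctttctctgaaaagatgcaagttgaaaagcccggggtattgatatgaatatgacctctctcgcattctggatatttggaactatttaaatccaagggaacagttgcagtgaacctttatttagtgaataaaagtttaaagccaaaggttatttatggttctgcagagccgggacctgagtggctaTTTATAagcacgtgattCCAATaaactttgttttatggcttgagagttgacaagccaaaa
The Hoxd13 window held 7 matches to GGGCGG, some overlapping each other, 2 overlapping ones to TATAAA, 1 to CCAAT and 37 CpG dinucleotides. The Hoxd4 window held no match to GGGCGG, 1 to TATAAA, 2 to CCAAT and 4 CpG. Promoters were found for 22 of the 37 genes, 24 in all, and their median was 14.5 CpG, against 7 over 32851 mouse promoters of the same length. CCAAT stood in 62.5% of the Hox promoters and 37.4% of all, GGGCGG in 41.7% and 35.7%, and TATAAA in 16.7% and 13.6%. TTTATG, a core of sites for the Cdx proteins that act on Hox clusters, also searched on both strands, stood in 20.8% and 11.9%. These matches describe letters and are no evidence of binding.

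The 75th percentile of the signal was 1040, 834 and 829 units on the p53-null MEF, ES cell and MEF arrays, and 26198 to 27954 of 43379 spots were well above background. The array of p53-null MEF was on its own slide and scanned apart from the other pair, with a median local background of 44 units against 27, so slide and genotype cannot be told apart. Trp53, the gene for p53, gave 56.3 units in p53-null MEF and 1304 in MEF at a probe printed 10 times. At the other probe it gave 260 units in p53-null MEF and 572 in MEF. Which part of the gene was removed is not stated. Of 10 fibroblast markers, all were well above background on both fibroblast arrays and 9 on the ES cell array, with summed signals of 586342 units in p53-null MEF, 39781 in ES cells and 555017 in MEF. These sums, like every signal in units, are not scaled between arrays, whereas folds and log2 differences are unless stated. Of 8 pluripotency markers, all were well above background in ES cells, 2 in p53-null MEF and 4 in MEF, with Pou5f1, Nanog, Zfp42 and Esrrb not well above it on both fibroblast arrays.

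Hox signals covered nearly the whole length of the clusters in both fibroblast samples, and fewer genes in ES cells. Of the 37 genes, 33 were well above background in p53-null MEF, against 58.4% of all genes on that array. In ES cells 22 were, against 62.7% of all genes, and in MEF 33, against 59.4%. Signals on all 3 arrays came from 21 genes, and 11 genes were well above background on both fibroblast arrays and not in ES cells. All 10 genes of cluster A were measured on both fibroblast arrays. In cluster D the same held for Hoxd4 to Hoxd13 but for neither anterior gene.

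By position, 15 of 15 posterior genes were well above background in p53-null MEF and 14 of 15 in MEF, the exception being Hoxc13, a gene of hair and nails. Hoxc13 gave 25.2 units in p53-null MEF and 12.3 in MEF. Of the 15 central genes, 14 were well above background in p53-null MEF and all 15 in MEF, the exception being Hoxc8. Of the 7 anterior genes, 4 were on each fibroblast array. ES cells had 5 of 7 anterior, 8 of 15 central and 9 of 15 posterior genes.

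Hoxb1, Hoxd1 and Hoxd3 were not well above background on both fibroblast arrays. Hoxb1, which specifies a segment of the hindbrain, was printed at 10 spots. Its spots gave 3.19 to 4.75 units in p53-null MEF and 4.73 to 9.09 in ES cells, and in MEF 1 spot of 14.7 units stood above the other 9, which reached 3.05. Hoxd1 was well above background in ES cells alone, with 15.5 units against 3.81 in p53-null MEF and 5.30 in MEF. The dimmest signal marked well above background differed by array, at 16.0 units in p53-null MEF, 10.1 in ES cells and 12.4 in MEF, unscaled. Hoxd3 was not well above background on all 3 arrays at both of its probes.

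**Figure D1:**
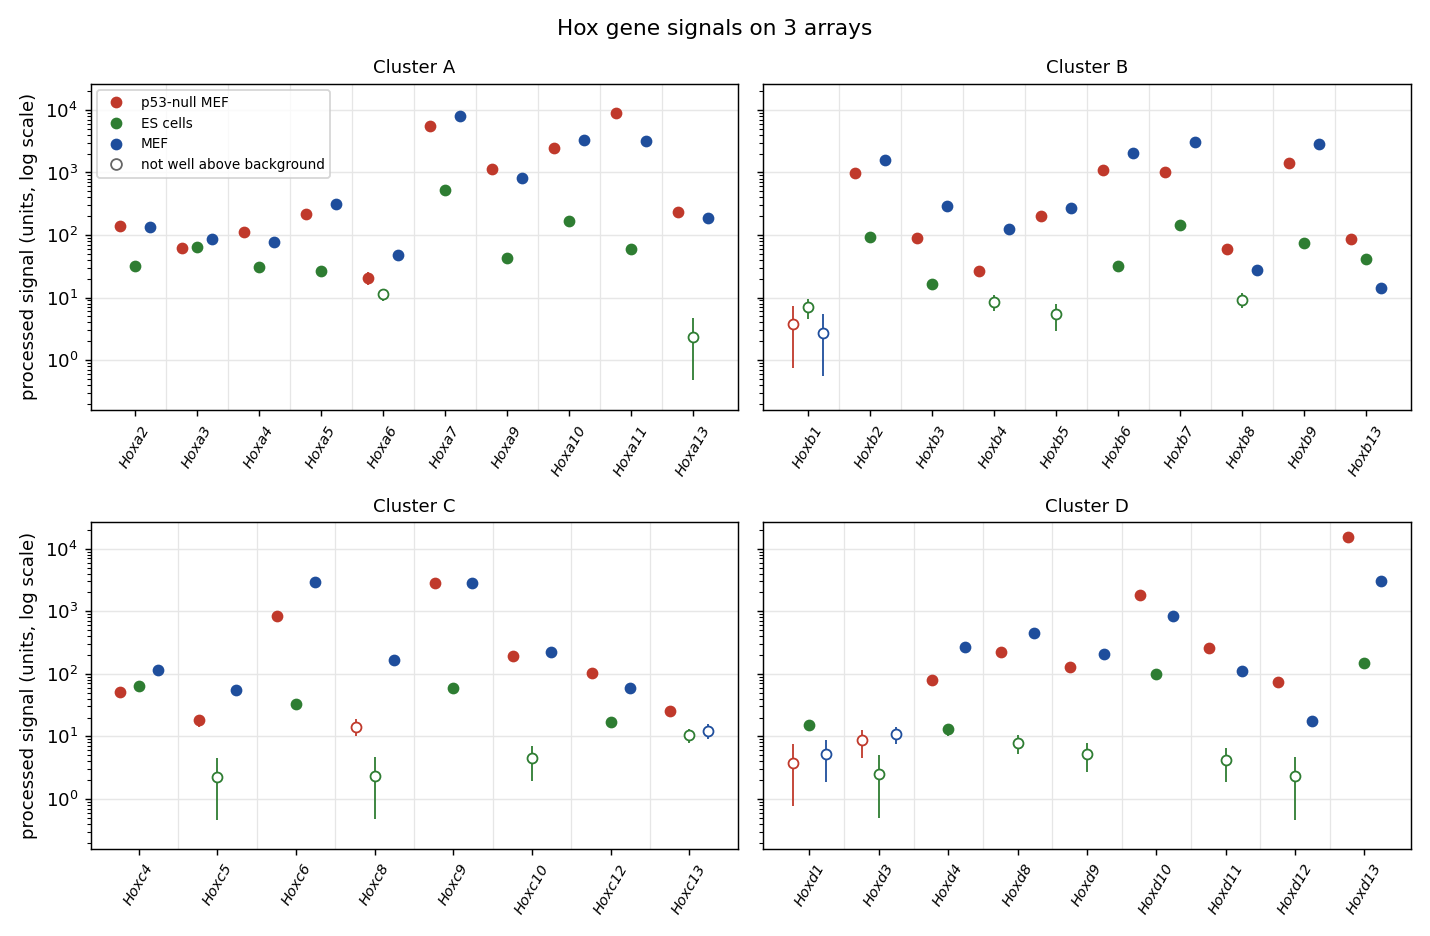
Processed signal (units, log scale) of the probe that stands for each of the 37 Hox genes, by cluster and in order of paralogue number, with p53-null MEF, ES cells and MEF from left to right for each gene. Bars are the error of the scanner software for 1 array, and open symbols are signals not well above background. The signals are not scaled between arrays. ES cell symbols lie below both fibroblast symbols for most genes. The p53-null MEF symbols lie above MEF symbols at the posterior genes Hoxa9, Hoxa11, Hoxa13, Hoxb13, Hoxc12, Hoxc13 and Hoxd10 to Hoxd13. They also do so at the central genes Hoxa4 and Hoxb8, at the anterior gene Hoxa2 and, with open symbols, at Hoxb1. With scaling, the log2 differences of Hoxa2 and Hoxa13, p53-null MEF minus MEF, were -0.27 and -0.01.

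The fibroblast arrays differed along the clusters, most clearly at central genes. In p53-null MEF 10 of 15 central Hox genes were lower by 2-fold or more, against 16.6% of all genes. Of 15 posterior genes 4 were at least 2-fold higher and 2 lower, against 18.6% and 16.6% of all genes. These posterior counts are not far from those shares. With spike-in scaling the central median turned to 0.49, and with normexp background correction 1 posterior gene stayed at least 2-fold higher. Of 34 Hox genes well above background on at least 1 of these arrays, 4 were higher in p53-null MEF by 2-fold or more, 14 were lower by as much and 16 were neither. Over all genes counted the same way, 18.6% were higher and 16.6% lower by 2-fold or more. A 4-fold difference was reached by 2 Hox genes that were higher, against 5.47% of all genes, and by 5 that were lower, against 4.57%. The median log2 difference, p53-null MEF minus MEF, was -0.78 over the Hox genes and 0.03 over all genes. Scaling moved this split, to 8 higher and 11 lower with no scaling and to 20 higher and 1 lower with spike-in spots, under which the median was 1.19 over the Hox genes and 2.08 over all genes. Scaling that shifts all genes of an array alike cannot change the order of the position classes. With quantile normalization and with normexp, which could, the posterior median remained above the central one, by 1.86 and 1.19.

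The 15 posterior genes had a median of 0.47, with 4 higher and 2 lower by 2-fold or more, not far from the shares over all genes. The 15 central genes had a median of -1.48, with 10 lower and none higher by that much. The 4 anterior genes with a signal had a median of -0.92, and 2 of them were at least 2-fold lower. Within the posterior class the 4 genes of paralogue 9 had a median of -0.69, the 3 of paralogue 10 of -0.54, and the 8 of paralogues 11 to 13 of 1.0. That last division was chosen after the values were seen. Of those 8 genes, 7 lay above 0, with Hoxc13 at a bound of 0.70 ± 0.47, and the other, Hoxa13, at -0.01 ± 0.21. Here and below the value after ± is the error model on the log2 scale.

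**Figure D2:**
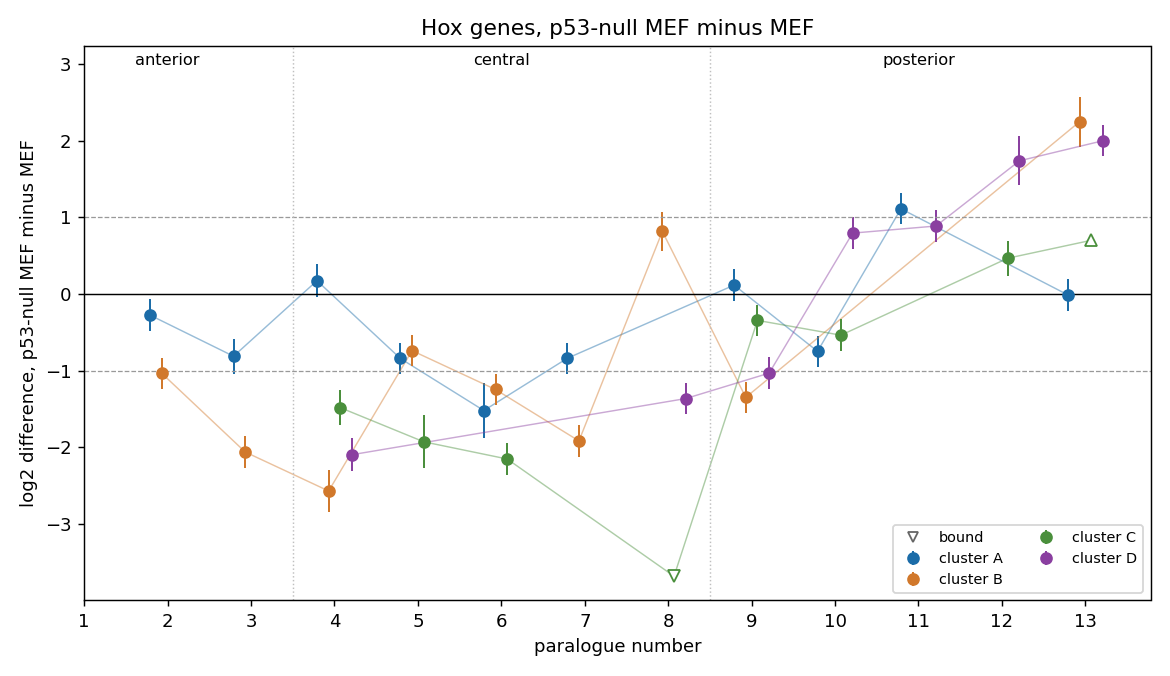
Log2 difference of each Hox gene, p53-null MEF minus MEF, against its paralogue number, coloured by cluster. Bars are the error model, open triangles are bounds where 1 array was not well above background, and dashed lines mark 2-fold. Hoxb13, Hoxd12, Hoxd13 and Hoxa11 lie above the upper dashed line, and 10 of the 15 central genes lie below the lower one, with 75th percentile scaling; with spike-in scaling the central median was above 0.

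Hoxd13, which shapes the digits, was higher in p53-null MEF at both of its probes. Its probe at chr2:74472030-74472089 gave 15246 units in p53-null MEF, 149 in ES cells and 3036 in MEF. It was 4.0-fold higher in p53-null MEF than in MEF, a log2 difference of 2.0 ± 0.20. The homeobox probe printed above gave 1149 units in p53-null MEF, 27.3 in ES cells and 667 in MEF, a log2 difference of 0.46 between the fibroblast arrays. The differences at the 2 probes were 1.54 apart on the log2 scale.

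Hoxd12, its neighbour, gave 73.5 units in p53-null MEF, 2.34 in ES cells and 17.5 in MEF. The difference was 3.34-fold, or 1.74 ± 0.32. Hoxb13, which acts at the tail end and in the prostate, gave 86.3 units in p53-null MEF, 41.9 in ES cells and 14.5 in MEF. That was 4.75-fold higher in p53-null MEF than in MEF, or 2.25 ± 0.33. The MEF signals of Hoxb13 and Hoxd12 were close to the floor of 12.4 units, the dimmest that the MEF array marked as well above background, and with normexp their differences were 0.72 and 0.46, both under 2-fold.

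Hoxa11, a gene of the forearm and the uterus, gave 8772 units in p53-null MEF, 59.0 in ES cells and 3232 in MEF, 2.16-fold higher in p53-null MEF. Its difference of 1.11 ± 0.20 became 0.95 with normexp, where Hoxd13 alone of the 4 kept a difference of at least 2-fold. Hoxd10 and Hoxd11 lay between 0 and 1, at 0.80 and 0.89, as did Hoxc12 at 0.47. Hoxc13 was at least 1.63-fold higher, a bound of 0.70 ± 0.47, within 1.96 times its error. Hoxb9 and Hoxd9 were the posterior genes at least 2-fold lower, at -1.35 and -1.03, and with normexp Hoxd9 was within 2-fold at -0.88. The other Hoxb9 probe gave -0.82 and the other Hoxd9 probe -1.29. Hoxa10 at -0.75 and Hoxc10 at -0.54 lay below 0 within 2-fold, but the other Hoxc10 probe was at least 2.54-fold lower.

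Among central genes the differences ran the other way. Hoxc8, which patterns the thorax, gave 14.3 units in p53-null MEF, not well above background, 2.36 in ES cells and 164 in MEF. In p53-null MEF it was lower by at least 12.8-fold. Hoxb4, known for expanding blood stem cells, gave 26.7 units in p53-null MEF, 8.63 in ES cells and 126 in MEF, a difference of -2.57 ± 0.27. With normexp the Hoxc8 value was -1.81 and the Hoxb4 value -1.39.

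Hoxc6, another thoracic gene, gave 835 units in p53-null MEF, 33.2 in ES cells and 2956 in MEF. It was 4.44-fold lower in p53-null MEF, at -2.15 ± 0.20. Hoxd4, a gene of the hindbrain and neck, gave 79.9 units in p53-null MEF, 12.9 in ES cells and 272 in MEF, 4.27-fold lower in p53-null MEF. The ES cell signals of Hoxb4, Hoxc8 and Hoxd12 were not well above background. The central genes 4-fold lower come from clusters B, C and D, and no gene of cluster A was 4-fold different. With normexp Hoxd4 was at -1.56 and 0 Hox genes were 4-fold lower.

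The other central genes lower by 2-fold or more in p53-null MEF were Hoxa6, Hoxb6, Hoxb7, Hoxc4, Hoxc5 and Hoxd8, between -1.93 for Hoxc5 and -1.24 for Hoxb6. With normexp Hoxa6 (-0.70) and Hoxc5 (-0.88) were within 2-fold. Hoxa5, Hoxa7 and Hoxb5 lay between -0.84 and -0.74. Hoxa4 at 0.17 ± 0.22 and Hoxb8 at 0.82 ± 0.26 were the central genes above 0. Hoxb8 gave 60.7 units in p53-null MEF and 27.5 in MEF, next to Hoxb7 with 1027 units in p53-null MEF and 3085 in MEF, so these neighbours had differences of opposite sign. With normexp the Hoxb8 value was 0.22, within 1.96 times its error, with spike-in scaling both genes lay above 0, and the other Hoxb8 probe was not well above background on all 3 arrays.

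Among anterior genes, Hoxb3, which acts in the hindbrain, gave 89.0 units in p53-null MEF, 16.7 in ES cells and 296 in MEF, a difference of -2.06 ± 0.21, or -1.66 with normexp. Its other probe, called Hoxb3 in the newer design file alone, gave -1.09. Hoxb2 was at -1.03 ± 0.20 (-0.84 with normexp), Hoxa3 at -0.81 and Hoxa2 at -0.27. The second probe called Hoxb2 lies on the strand opposite to the cluster. It read 32.4 units in p53-null MEF, 14.7 in ES cells and 8.09 in MEF. It was the dimmer probe, so the brighter one stands for Hoxb2, whose value is 0.32 if both probes are averaged.

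The clusters differed in their median difference, at -0.51 in cluster A, -1.24 in B, -1.01 in C and 0.80 in D. In cluster D, with the probe that stands for each gene, the differences of the 7 genes measured followed the paralogue number: -2.09 for Hoxd4, -1.36 for Hoxd8, -1.03 for Hoxd9, 0.80 for Hoxd10, 0.89 for Hoxd11, 1.74 for Hoxd12 and 2.0 for Hoxd13. Spearman's coefficient between difference and paralogue number was 1 there (Pearson's r 0.94, 7 genes). That order does not hold with normexp, where Hoxd10 was at 0.83, Hoxd11 at 0.67, Hoxd12 at 0.46 and Hoxd13 at 2.04 and the coefficient was 0.86, nor with the other Hoxd13 probe, at 0.46. With 75th percentile scaling the coefficient was 0.31 in cluster A (10 genes), 0.47 in B (9), 0.71 in C (6) and 0.66 over all 32 measured genes. These are descriptions, since the genes share the same 2 arrays, their scaling and their neighbours on the chromosome. In cluster A the range was from -1.52 at Hoxa6 to 1.11 at Hoxa11, and 8 of 10 genes were within 2-fold.

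Of the 32 measured differences, 5 were within 1.96 times their error model: Hoxa2, Hoxa4, Hoxa9, Hoxa13 and Hoxc9. Hoxc9 gave 2849 units in p53-null MEF and 2879 in MEF, and Hoxa9, a gene of blood progenitors, 1120 in p53-null MEF and 822 in MEF. The error ran from 0.20 to 0.36. Agreement between probes was coarser than that. Of the 12 genes with several probes, 7 had more than 1 probe measured on both fibroblast arrays, with a median gap of 0.53 between them. The gap was widest for Hoxd13 (1.54), Hoxb3 (0.97) and Hoxa13 (0.59), while the direction was shared by both probes in all but Hoxa13.

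**Figure D3:**
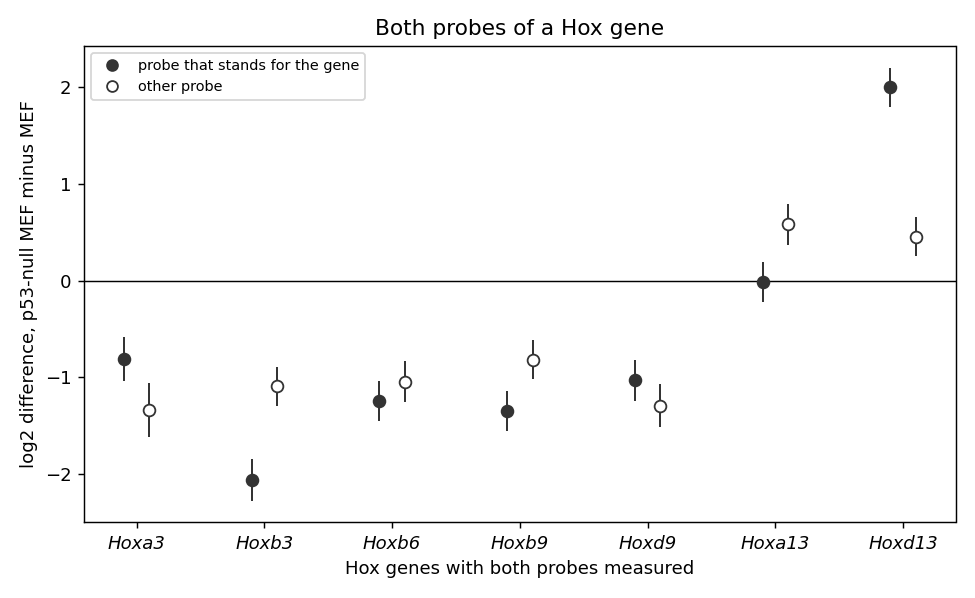
Log2 difference, p53-null MEF minus MEF, at both probes of the 7 Hox genes for which both were measured, in order of paralogue number. Filled symbols are the probes that stand for the gene and bars are the error model. Hoxa3, Hoxb3, Hoxb6, Hoxb9 and Hoxd9 lie below 0 and Hoxd13 above 0 at both probes, with Hoxd13 at 2.0 and 0.46.

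**Figure D4:**
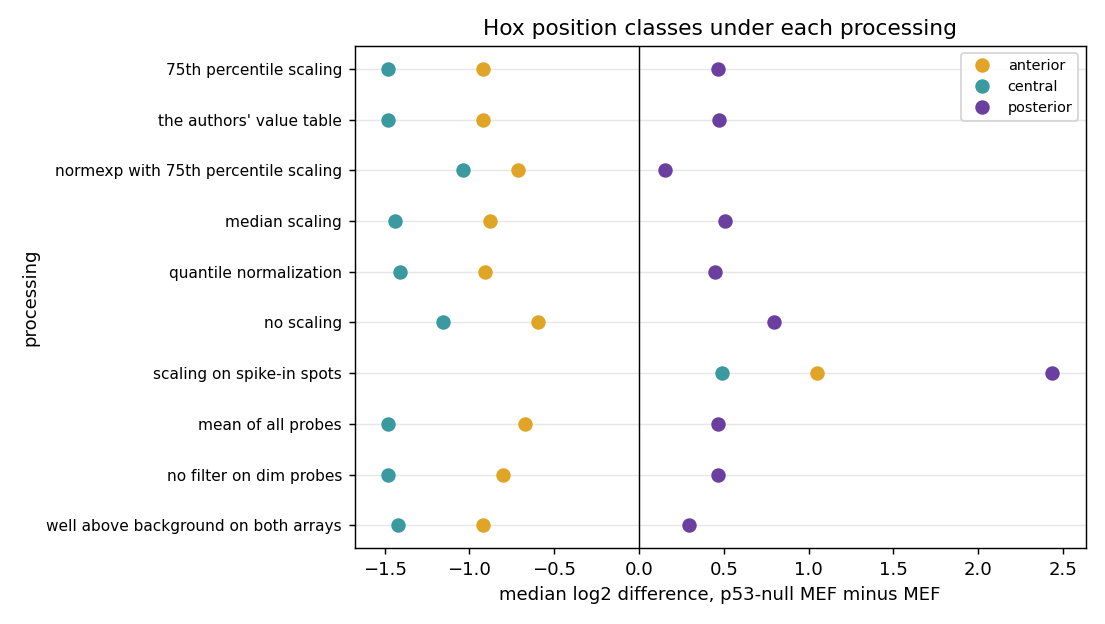
Median log2 difference, p53-null MEF minus MEF, of anterior, central and posterior Hox genes under each processing. The posterior median is the highest and the central median the lowest in every one of them, 1.19 apart with normexp and 1.95 apart with 75th percentile scaling. Median, spike-in and no scaling move the 3 medians by the same amount, and spike-in spots put them all above 0, with the central median at 0.49.

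Most Hox genes were far lower in ES cells than in MEF. Of 34 genes well above background on at least 1 of these arrays, 1 was higher in ES cells by 2-fold or more, 29 were lower by as much and 4 were neither, where 32.7% of all genes were higher and 27.1% lower by 2-fold or more. A 4-fold difference was reached by 26 Hox genes that were lower in ES cells, against 15.5% of all genes, and by 0 that were higher, against 16.8%. The median log2 difference, ES cells minus MEF, was -4.08 over the Hox genes and 0.21 over all genes. It was -2.12 with normexp. Of the 34 values, 13 were bounds, because the ES cell signal was not well above background or, for Hoxd1, the MEF signal was not. In a culture, fewer cells with a transcript and less transcript in each cell cannot be told apart.

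The posterior genes had a median of -4.27, the central genes of -3.94 and the 5 anterior genes counted of -2.09. Among those anterior genes, Hoxb2 at -4.13 and Hoxb3 at -4.16 lay below the central median, and Hoxa2, Hoxa3 and Hoxd1 above it. At least 2-fold lower in ES cells were 12 of 14 posterior, 14 of 15 central and 3 of 5 anterior genes. Among measured differences Hoxc6 gave the widest, -6.49 ± 0.23, or 89.6-fold, and Hoxb6 at -6.05 and Hoxa11 at -5.78 came next. The 13 bounds have no place in this order. With normexp the 3 genes were at -5.07, -4.67 and -4.80. The value of Hoxb6 rests on its probe, since its other probe, designed on transcript X56459, gave 49.2 units in ES cells and 177 in MEF, a difference of -1.86.

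In cluster A the difference between ES cells and MEF was narrower at the anterior end, although the brightest ES cell signals of the cluster came from Hoxa7 (518 units) and Hoxa10 (167). The log2 differences were -2.09 at Hoxa2, -0.43 at Hoxa3, -1.33 at Hoxa4, -3.55 at Hoxa5, -3.94 at Hoxa7, -4.24 at Hoxa9, -4.30 at Hoxa10 and -5.78 at Hoxa11. Spearman's coefficient with paralogue number was -0.93 (Pearson's r -0.89, 8 measured genes). It was 0.03 over 6 genes of cluster B and -0.17 over all 21 measured genes. The genes share the same 2 arrays.

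**Figure D5:**
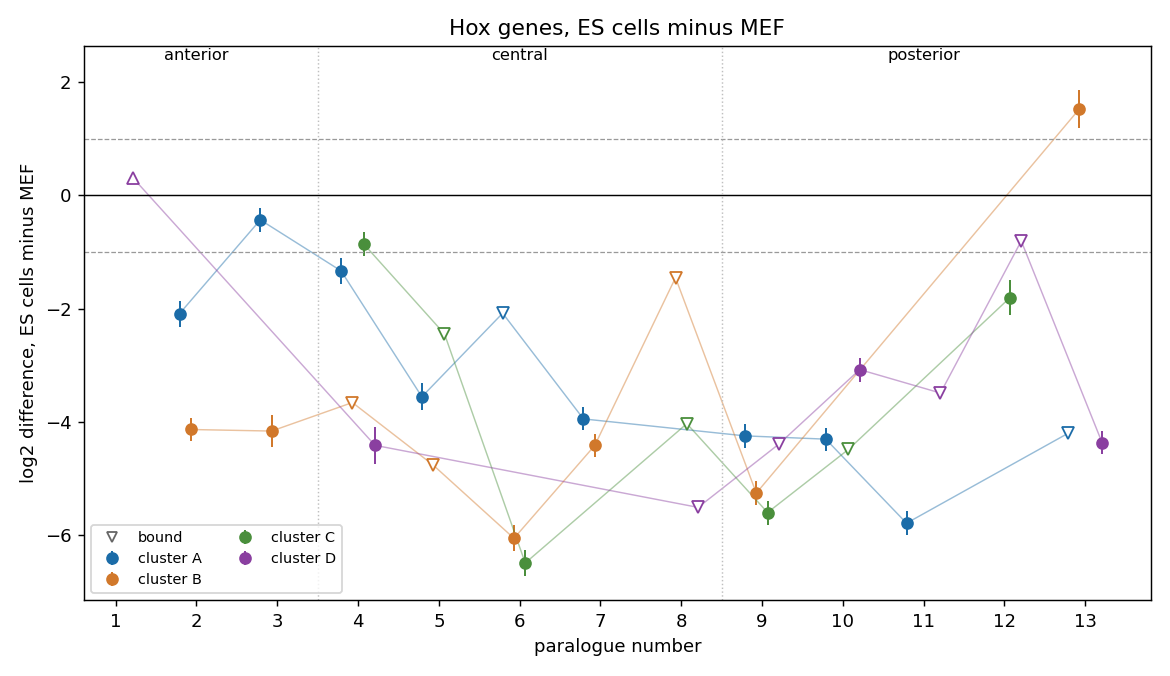
Log2 difference of each Hox gene, ES cells minus MEF, against its paralogue number, coloured by cluster. Bars are the error model, open triangles are bounds, and dashed lines mark 2-fold. All but 5 of the 34 genes lie below the lower dashed line, and Hoxb13 lies above the upper one.

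Among the 22 Hox genes well above background in ES cells, the 10 with the smallest fold from MEF included 3 from cluster A with numbers of 4 or less. Hoxa3, needed for the thymus and parathyroid, gave 62.2 units in p53-null MEF, 64.8 in ES cells and 86.9 in MEF at -0.43 ± 0.21, and -1.77 at its other probe. Hoxc4 gave 51.8 units in p53-null MEF, 64.0 in ES cells and 115 in MEF.

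Hoxa4 gave 111 units in p53-null MEF, 31.2 in ES cells and 78.2 in MEF, and was 2.52-fold lower in ES cells than in MEF. Hoxa2, which patterns the second pharyngeal arch, gave 141 units in p53-null MEF, 32.2 in ES cells and 136 in MEF, 4.25-fold lower. Hoxa5, a gene of the lung and sternum, gave 217 units in p53-null MEF, 26.5 in ES cells and 309 in MEF, 11.7-fold lower. Hoxa7, a central gene of the trunk, gave 5570 units in p53-null MEF, 518 in ES cells and 7930 in MEF, 15.4-fold lower. With normexp the log2 differences of Hoxa4, Hoxa2, Hoxa5 and Hoxa7 were -0.64, -1.17, -2.19 and -3.72, which leaves Hoxa4 within 2-fold. These genes stood lower in ES cells than on either fibroblast array.

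Hoxb13 was the gene at least 2-fold higher in ES cells than in MEF, at 2.88-fold or 1.52 ± 0.33, and it was 1.65-fold lower in ES cells than in p53-null MEF. With normexp no Hox gene was at least 2-fold higher in ES cells than in MEF. Hoxc12 gave 103 units in p53-null MEF, 17.0 in ES cells and 59.2 in MEF, and Hoxd10, which acts in hindlimb motor neurons, 1820 in p53-null MEF, 99.8 in ES cells and 836 in MEF. They were 3.49-fold and 8.42-fold lower in ES cells than in MEF, and with normexp -0.54 and -2.35 on the log2 scale, which leaves Hoxc12 within 2-fold. The last of the 10, Hoxd1, was at least 1.24-fold higher.

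ES cells and p53-null MEF, a pair the series design does not name, share their arrays with both comparisons above. Of 34 genes, none was at least 2-fold higher in ES cells, where 26.7% of all genes were, and 27 were at least 2-fold lower, where 23.7% of all genes were. The median was -2.91. The differences ran from -6.90 at Hoxa11 and -6.36 at Hoxd13 to 0.62 at Hoxc4. Hoxa3 lay above 0 as well, at 0.38 ± 0.23, within 1.96 times its error, but its other probe gave -0.44. Hoxd1 lay above 0 at a bound of 0.27.

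Hox proteins bind DNA together with the Pbx, Meis and Pknox homeodomain proteins, of which 8 genes were set beside them. Between p53-null MEF and MEF, Meis3 was 3.08-fold lower and 7 were within 2-fold (median -0.36). Over all genes 18.6% were higher and 16.6% lower by 2-fold or more. The count depends on the probe, since other probes of Meis1 and Pbx2 gave 1.32 and -1.45. Between ES cells and MEF 5 were at least 2-fold lower and Pbx4 2.92-fold higher (median -1.59), against 27.1% and 32.7% of all genes. Meis1, counted as lower at -1.25, gave -0.56 at another probe, and Pbx2, at -0.11, gave -1.14. Meis2 was 4.54-fold lower in ES cells.

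Of 23 genes of proteins that act on the Hox clusters, 20 were well above background on at least 1 fibroblast array, and 5 were higher by 2-fold or more in p53-null MEF and 1 lower, against 18.6% and 16.6% of all genes. The higher ones were Suz12 (4.43-fold), Ezh2 (3.55-fold) and Eed (2.26-fold), the core of Polycomb repressive complex 2, with Cbx2 (2.18-fold), a reader of its histone mark, and Kdm6a (2.13-fold), which removes that mark. Ezh1, the other methylase of that complex, was 3.71-fold lower, at 25.0 units in p53-null MEF and 73.8 in MEF. The median was 0.57. Ring1 and Cbx8, within 2-fold as counted, gave -1.86 and -1.52 at other probes. In ES cells 12 of 21 were at least 2-fold higher and 5 lower than in MEF (median 1.71), against 32.7% and 27.1% of all genes, with Cbx7 123-fold and Ezh2 11.9-fold higher. Cdx1 and Cdx4, which switch on central Hox genes in the embryo, were not well above background on all 3 arrays, and Cdx2 was well above background in ES cells alone, with 71.2 units.

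Other genes of limb and body axis position were set beside the Hox genes. Of 12, 10 were well above background on a fibroblast array. In p53-null MEF none was at least 2-fold higher, and Barx1 (7.07-fold), Hand2 (3.22-fold) and Shox2 (2.61-fold), which act in the jaw, gut or limb, were lower (median -0.72). Over all genes 18.6% were higher and 16.6% lower by 2-fold or more. Tbx5, a forelimb gene, gave 2247 units in p53-null MEF, 2.72 in ES cells and 1708 in MEF. Pitx1, a hindlimb gene, gave 3835 in p53-null MEF, 17.8 in ES cells and 5170 in MEF, so forelimb and hindlimb genes were both seen in each fibroblast sample. In ES cells 9 of the 10 were at least 2-fold lower than in MEF, against 27.1% of all genes (median -4.49).

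With 75th percentile scaling, the only scaling used for them, markers of other cell types also moved between the fibroblast arrays. Their part in the Hox differences was not tested. The sums given with them are not scaled between arrays, whose 75th percentiles were 1040 units in p53-null MEF and 829 in MEF. No direction is read from these sums. Of 5 neural and glial markers, 4 were well above background in p53-null MEF and 5 in MEF. Ngfr, Sox10 and S100b were lower by 2-fold or more in p53-null MEF and Nes higher, with summed signals of 9340 units in p53-null MEF and 8071 in MEF. Ngfr gave a log2 difference of -5.95 at the probe that stands for it and -0.42 at another. Of 6 macrophage markers, 3 were well above background in p53-null MEF and 5 in MEF (sums 293 and 2255), with Lyz2, Trem2 and Csf1r lower and Ptprc higher. Of 6 cartilage and bone markers all were on both arrays (sums 7465 in p53-null MEF and 13332 in MEF), with Comp, Bglap and Col2a1 lower and Acan higher.

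Endothelial markers were well above background for 3 of 5 genes on both arrays (sums 866 in p53-null MEF and 1955 in MEF), with Mmrn2 and Tek lower and Kdr higher, and Pecam1 and Cdh5 not well above background on both. Of 5 epithelial markers, Krt8 and Krt18 were on both arrays, Epcam in p53-null MEF alone and Krt5 in MEF alone (sums 7700 in p53-null MEF and 3521 in MEF), with Krt18 and Epcam higher and Krt5 lower. Skeletal muscle markers were for 3 of 5 on both (sums 441 in p53-null MEF and 408 in MEF), with Tnni1 and Myog higher, Des lower, and Myod1 and Myf5 not well above background. Among the fibroblast markers Pdgfra, Lum and Col3a1 were lower by 2-fold or more in p53-null MEF and 7 of 10 were within 2-fold. Over all genes 18.6% were higher and 16.6% lower by 2-fold or more. Of those 7, Col1a1, Col1a2 and Prrx1 left that range at other probes. These reached -1.57 for Col1a1, 2.18 for Col1a2, and -1.63 and 2.57 for Prrx1.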

How the data were processed

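The authors deposited 1 scanner file per array, written by Agilent Feature Extraction 9.5.3.1 per its header, with the Cy3 intensity of every spot in linear units. Its processed signal had been background-subtracted, per the file headers, and is not scaled between arrays. The authors' value table held the same intensity values, with column medians of 51.8 (p53-null MEF), 50.0 (ES cells) and 43.2 (MEF), no log scale, no centring and no direction.

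Log2 of the processed signal minus each array's 75th percentile over 43379 non-control spots was used, after leaving out 62, 176 and 192 spots marked uneven or outlying on the p53-null MEF, ES cell and MEF arrays. Spots of a probe were averaged. A probe was taken as well above background if 50% or more of its spots carried that mark, and the probe with the highest mean over the 3 arrays stood for its gene. A difference was measured where both arrays were well above background. Where 1 was not, its signal was replaced by its array's dimmest signal well above background, if that was higher, and the fold was written "at least". Where its own signal was kept, as for Hoxa6 in ES cells, the value is not a strict minimum. Hox names are those of the design files; other labels were updated through RefSeq (GRCm38.p6), and 8072 probes kept the file's name. A difference of at least 2-fold was counted. Hox genes named with values differed at least 4-fold between the fibroblast arrays, or were the 10 nearest to MEF among those seen in ES cells. Members and lists were chosen with earlier results of these data known, and some genes are not reported here. Alternatives covered background correction, scaling, choice of probe, filter and fold. Differences were checked on simulated data. Python 3.11.15, numpy 2.4.6, pandas 2.3.3, R 4.3.3 and limma 3.58.1 were used. The number of arrays limits the precision.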

Additional observations from a re-analysis of the deposited data

How the results depend on the processing

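Each value was recomputed with 1 choice changed at a time. Of single-gene values, 431 moved by less than their error model, 154 by more and 10 that were at least 2-fold as reported changed sign. No paired analysis was possible because each group has 1 array. The authors' value table moved no 2-fold count, and no median or gene beyond its error. It left 1 Hox gene 4-fold higher in p53-null MEF than in MEF, against 2 as reported.

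Scaling on spike-in spots gave 20 Hox genes higher and 1 lower in p53-null MEF, with medians of 1.19 over all Hox genes, 2.44 posterior, 0.49 central and 1.05 anterior. Under it Hoxa6 (0.45), Hoxb2 (0.94), Hoxb6 (0.72), Hoxb7 (0.054), Hoxb9 (0.62), Hoxc4 (0.49), Hoxc5 (0.042), Hoxd8 (0.61) and Hoxd9 (0.94) changed sign, as did 9 others that were under 2-fold as reported, 18 of 34 in all. The median over all genes was then 2.08. It gave ES cells minus MEF medians of -3.84 in all, -4.03 posterior, -3.71 central and -1.85 anterior, and -4.83 for ES cells minus p53-null MEF. With no scaling 8 Hox genes were higher in p53-null MEF, with medians of -0.45 in all, 0.80 posterior, -1.15 central and -0.59 anterior, and -3.42 for ES cells minus p53-null MEF. The share of all called genes that were higher in p53-null MEF was 52.8% as reported, 71.2% with no scaling and 98.0% with spike-in spots.

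Median scaling gave ES cells minus MEF medians of -4.30 in all, -4.49 posterior, -4.17 central and -2.31 anterior, and -3.17 for ES cells minus p53-null MEF. With normexp (offset 50) 1 Hox gene was higher in p53-null MEF than in MEF and 0 in ES cells than in MEF. Medians were then 0.15 posterior, -1.04 central and -0.71 anterior for p53-null MEF minus MEF, -2.12 in all, -2.20 posterior, -2.19 central and -1.17 anterior for ES cells minus MEF, and -1.68 for ES cells minus p53-null MEF. The cause was not tested.

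The mean of all probes turned Hoxb2 to 0.32 and gave an anterior median of -0.67 for p53-null MEF minus MEF, -1.64 anterior and -3.98 posterior for ES cells minus MEF, and -2.63 for ES cells minus p53-null MEF. Without the filter on dim probes 3 genes were higher in ES cells than in MEF and 2 than in p53-null MEF, and the central median for ES cells minus MEF was -4.41. Over genes well above background on both arrays, which are fewer, 18 were lower in ES cells than in MEF, with medians of -4.18 central and -3.11 anterior. At 5-fold, 0 were higher and 2 lower in p53-null MEF, and 0 higher in ES cells than in MEF. The posterior median over paralogues 11 to 13, chosen after seeing the data, was 1.0. Dim signals, such as those of Hoxb13 and Hoxd12 in MEF, limit what the arrays show.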

Other observations

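Other transcripts inside the clusters were read by 9 probes, of which 4 were well above background on at least 1 array. The transcript 9530018H14Rik, between Hoxa11 and Hoxa13 on the strand of the cluster, gave 133 units in p53-null MEF, 5.52 in ES cells and 34.3 in MEF, and was 3.09-fold higher in p53-null MEF than in MEF. Hoxaas2, on the opposite strand between Hoxa2 and Hoxa3, gave 102 units in p53-null MEF, 12.8 in ES cells and 66.1 in MEF, a log2 difference of 0.29 ± 0.22 between the fibroblast arrays. A probe named Hoxaas3, between Hoxa6 and Hoxa7 but on the strand of the cluster, gave 99.5 units in p53-null MEF, 2.29 in ES cells and 77.1 in MEF, a difference of 0.04 ± 0.22, and the other probe of that name was not well above background on all 3 arrays. Hoxd3os1, on the opposite strand of cluster D, gave 8.85 units in p53-null MEF, not well above background, 2.59 in ES cells and 33.5 in MEF, and in p53-null MEF it was lower by at least 2.63-fold.

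Genes that flank the clusters were listed too, and 8 of 9 were on the array by name. Snx10, beyond the anterior side of cluster A, was 2.32-fold higher in p53-null MEF than in MEF and Hibadh, beyond its other side, 2.06-fold lower, with 5 others within 2-fold. Over all genes 18.6% were higher and 16.6% lower by 2-fold or more. Lnpk, among those 5, gave a log2 difference of 1.38 at another probe. Evx1, the gene next to Hoxa13, gave 4.14 units in p53-null MEF, 43.0 in ES cells and 3.04 in MEF, and was well above background in ES cells alone. Evx2, next to Hoxd13, gave 10.4 units in p53-null MEF, 37.7 in ES cells and 23.0 in MEF.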
